A study of Mus musculus with 6 samples.

Results

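The SWI/SNF complexes are assemblies that use the energy of ATP to slide or evict nucleosomes, and so set which stretches of DNA transcription factors can reach. A canonical complex is built around 1 ATPase, either Smarca4 (BRG1) or its paralog Smarca2 (BRM). The core of such a complex holds Smarcb1, Smarcc1, Smarcc2 and Smarcd proteins, and the complex takes its identity from the large DNA-binding subunits. Arid1a or Arid1b defines the BAF form, and Arid2 with Pbrm1 the PBAF form. In the pancreas several of these genes are known from mouse models and tumor genetics to bear on acinar identity and on the path to ductal adenocarcinoma. The 10 subunits Smarca4, Smarca2, Smarcb1, Smarcc1, Smarcc2, Smarcd1, Arid1a, Arid1b, Arid2 and Pbrm1 were chosen by name, and all 10 were found among the 10245 genes of the deposited table.

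RNA-seq values came from whole pancreata of 3 control mice (Ptf1a(CreER/+), aged 4 months) and 3 Ptf1a cKO mice (Ptf1a(CreER/fl), aged 5 months). All of them received tamoxifen by gavage on 3 consecutive days at 0.25 mg/g and were killed on day 14. In both groups 1 Ptf1a allele carries CreER and makes no PTF1A protein, so the controls are heterozygous, and recombination is limited to cells in which Ptf1a is active, chiefly acinar cells. Each group held 1 male and 2 females, age followed genotype, and the effects of age and genotype cannot be told apart.

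Values are normalized counts, that is, read counts per gene that the authors placed on a common scale, with the median gene between 125.0 and 128.5 in each library. Digestive enzymes took 78.7% to 81.8% of the summed normalized counts in control and 38.0% to 63.4% in Ptf1a cKO libraries. Fold changes are differences of log2(value + a pseudocount of 3.41 normalized counts), Ptf1a cKO over control, tested by limma over all genes with Benjamini-Hochberg adjustment and a threshold of 0.05. The targeted gene Ptf1a was at 566, 601 and 652 normalized counts in control and at 19.8, 70.1 and 10.2 in Ptf1a cKO libraries, which matches the labels. In a bulk sample, fewer cells of a type and less RNA per cell cannot be told apart, and this holds for every change given here.

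Of the 10 subunits, 2 were higher in Ptf1a cKO pancreata (Smarca4 and Smarcd1), 1 was lower (Smarcc2) and 7 did not pass the threshold. Across all genes 33.9% passed it, 17.1% as higher and 16.8% as lower, so the count of 3 in 10 is near the background. The median log2 fold change of the 10 subunits was 0.12, beside 0.036 for all genes. In 4 of the 10 the control and Ptf1a cKO libraries did not overlap, against 50.8% of all genes. Summed over the 10 subunits, the libraries held 3974 to 4381 normalized counts in control and 3670 to 4039 in Ptf1a cKO.

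**Figure D1:**
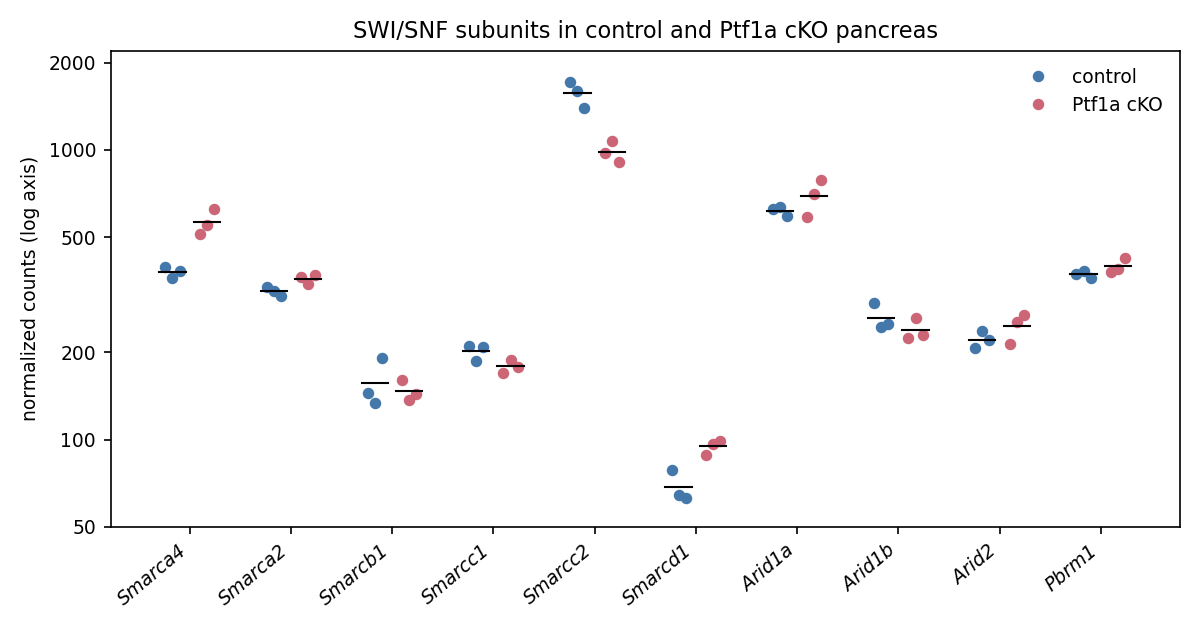
Normalized counts (log axis) of the 10 SWI/SNF subunits, with 1 point per library, control in blue and Ptf1a cKO in red, and a bar at the mean of each group of 3. Smarca4, Smarca2 and Smarcd1 lie higher in all Ptf1a cKO libraries and Smarcc2 lies lower in all of them, while the groups of the other 6 subunits overlap.

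Of the motor subunits, only Smarca4 (BRG1) passed the threshold. It lies on chromosome 9 of GRCm38 from 21616169 to 21704230. Its values were 394, 361 and 382 normalized counts in control and 513, 550.0 and 627 in Ptf1a cKO libraries. The lowest Ptf1a cKO library thus stood above the highest control library. The means were 379 ± 16.6 and 563 ± 57.8 (SD, n = 3 each), a rise of 48.6% in the mean. The log2 fold change was 0.56 ± 0.12 (SE; limma adjusted p = 0.00596). With each library left out in turn, the change ran from 0.49 to 0.63 and passed the threshold in 6 of 6 fits. It was 0.61 within the females and 0.48 within the 1 male pair. Of all genes, 17.4% had a larger log2 fold change, so the rise of Smarca4 was moderate within this comparison. Exons of Smarca4 share 99 bases with Gm27373, a gene on the same strand that has no values here.

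The other ATPase, Smarca2, on chromosome 19 from 26605050 to 26778322, showed little difference. It was at 337, 326 and 314 normalized counts in control and at 363, 346 and 369 in Ptf1a cKO libraries. Although the groups did not overlap, the log2 fold change was only 0.14, with a 95% interval from -0.09 to 0.37 (limma adjusted p = 0.312). That interval includes no change and reaches to a rise smaller than the one measured for Smarca4.

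The 250 bases before the RefSeq start site are shown for the ATPase called higher, Smarca4, and for the subunits called lower, Smarcc2 and Phf10. Phf10 is a PBAF subunit described further on. PTF1A binds DNA at an E-box, CANNTG, beside a TC-box, TTTCCCA, which is why the windows are shown. Capitals mark either motif on either strand. The windows are those of GRCm38.p6, written 5′ to 3′ along the gene, with Smarca4 at chr9:21615919-21616168 (plus strand), Smarcc2 at chr10:128458986-128459235 (plus strand) and Phf10 at chr17:14961261-14961510 (minus strand).
Smarca4: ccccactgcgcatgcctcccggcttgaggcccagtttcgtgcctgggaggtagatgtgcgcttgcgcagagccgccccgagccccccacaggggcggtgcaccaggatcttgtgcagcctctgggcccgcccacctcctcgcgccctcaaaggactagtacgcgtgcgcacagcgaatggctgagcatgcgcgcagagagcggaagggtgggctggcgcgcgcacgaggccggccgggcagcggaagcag
Smarcc2: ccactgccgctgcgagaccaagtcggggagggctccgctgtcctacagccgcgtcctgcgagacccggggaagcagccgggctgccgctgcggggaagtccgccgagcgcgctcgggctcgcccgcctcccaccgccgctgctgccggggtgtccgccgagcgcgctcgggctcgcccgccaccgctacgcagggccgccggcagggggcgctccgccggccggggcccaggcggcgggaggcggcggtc
Phf10: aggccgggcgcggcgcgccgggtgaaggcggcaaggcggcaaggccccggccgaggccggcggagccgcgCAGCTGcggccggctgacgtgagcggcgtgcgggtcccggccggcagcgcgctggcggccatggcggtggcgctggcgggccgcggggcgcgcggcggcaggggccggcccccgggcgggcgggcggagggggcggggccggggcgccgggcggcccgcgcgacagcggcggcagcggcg
The windows of Smarca4 and Smarcc2 hold neither motif, and that of Phf10 holds 1 E-box, CAGCTG. An E-box is found in 66.2% of the 32851 windows of this length in the RefSeq table, CAGCTG in 13.0% and a TC-box in 6.82%. Of the 10 subunits, 9 had an entry in the table (Arid2 did not), and an E-box was found in the windows of Smarca2 and Pbrm1 only. The windows of these 9 are 59.6% to 81.6% G and C, and that of Phf10 is 88.4%. Each window of Brd9, a further subunit called higher, holds 1 E-box. The windows of Smarcc1 (110131774 to 110132023 on chromosome 9) and Arid1b, and a further window of Arid1a, lie inside the annotated spans of these genes. Those of Smarca2, Smarcb1, Smarcd1 and Phf10, and a window of Brd9, lie in part inside theirs. A match of letters is a description of the window and no measure of binding.

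The core subunit Smarcc2, a scaffold protein on which the complex is built, was the only one of the 10 called lower. It lies on chromosome 10 from 128459248 to 128490482. Its transcript was at 1718, 1598 and 1390.4 normalized counts in control and at 974, 1070.1 and 909.5 in Ptf1a cKO libraries. All Ptf1a cKO values lay under all control values. The mean went from 1569 ± 166 to 985 ± 80.8 (SD, n = 3 each), and the log2 fold change of Smarcc2 was -0.67 ± 0.13 (SE; limma adjusted p = 0.00418). It passed the threshold in 6 of 6 fits with a library left out, with changes from -0.75 to -0.60, and was -0.66 within the females and -0.68 within the male pair. After rescaling all libraries to an equal total, which moved the median gene by 1.49, Smarcc2 was at 0.83, or -0.66 relative to that median, and under the other 3 scalings it was called lower, at -0.69 to -0.51.

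Its paralog Smarcc1, on chromosome 9 from 110117708 to 110240178, did not pass the threshold. Its values were 211, 186 and 209 normalized counts in control and 169.6, 189 and 178 in Ptf1a cKO libraries. The groups overlapped, and the log2 fold change was -0.17, with a 95% interval from -0.42 to 0.08 (limma adjusted p = 0.263). Its exons share 123 bases with Dhx30 on the opposite strand.

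Smarcd1, an accessory subunit that links the complex to transcription factors, had the lowest counts of the 10. It lies on chromosome 15 from 99702129 to 99713991. Values were 78.5, 64.2 and 63.0 normalized counts in control and 88.4, 96.7 and 98.7 in Ptf1a cKO libraries. The groups did not overlap, with means of 68.6 ± 8.63 and 94.6 ± 5.47 (SD, n = 3 each). Smarcd1 was higher by 0.45 ± 0.14 on the log2 scale (SE; limma adjusted p = 0.0339). This call was lost in 5 of 6 fits with a library left out, all but the one without control replicate 1, where the adjusted p was 0.032. In those 5 the change stayed between 0.40 and 0.50 and the adjusted p reached 0.105 (limma). Exons of Smarcd1 share 287 bases with Gm17349 and 224 with Gm34939, genes on the opposite strand. Whether the authors' counting used strand is not given in the sources used here. Further exonic overlaps among the 10 subunits were those of Arid2 (92 bases with Gm25397, same strand), Smarca2 (40 with 4931403E22Rik, opposite strand) and Pbrm1 (15 with Gnl3, opposite strand).

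Smarcb1, the core subunit whose loss defines rhabdoid tumors, lies on chromosome 10 from 75896769 to 75921617. It held 145, 134 and 191 normalized counts in control and 160.0, 137 and 143 in Ptf1a cKO libraries. Control replicate 3 was higher than the other 5 libraries, which overlapped. The log2 fold change of -0.08 (95% interval -0.42 to 0.26, limma adjusted p = 0.714) turned to 0.07 without control replicate 3.

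The BAF-defining subunits did not pass the threshold. Arid1a, on chromosome 4 from 133679008 to 133756769, is the subunit most often mutated in pancreatic and other carcinomas. It was at 623, 636 and 592 normalized counts in control and at 586, 703 and 789 in Ptf1a cKO libraries. The Ptf1a cKO libraries spread widely and 1 of them lay under all controls, and the log2 fold change was 0.16 (95% interval -0.14 to 0.45, limma adjusted p = 0.378). Arid1b, on chromosome 17 from 4994332 to 5347656, was at 296, 245 and 250.1 in control and at 224, 264 and 229.6 in Ptf1a cKO libraries, with a log2 fold change of -0.14 (95% interval -0.42 to 0.14, limma adjusted p = 0.418).

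The PBAF-defining subunits also did not pass the threshold. Arid2, on chromosome 15 from 96287518 to 96404992, was at 207, 236 and 221 normalized counts in control and at 214, 254 and 269 in Ptf1a cKO libraries. Its log2 fold change was 0.14 (95% interval -0.14 to 0.42, limma adjusted p = 0.396). Pbrm1, on chromosome 14 from 31019138 to 31121592, carries the bromodomains with which PBAF reads acetylated histones. It was at 372, 382 and 362 normalized counts in control and at 378, 387 and 425 in Ptf1a cKO libraries. The groups overlapped and the log2 fold change was 0.09 (95% interval -0.15 to 0.33, limma adjusted p = 0.532). For the 7 subunits that were not called, the intervals lie between -0.42 and 0.45, so changes of the size of those of Phf10 (-1.13) were not covered by any of them. As a description, the mean log2 value of Arid2 and Pbrm1 minus that of Arid1a and Arid1b was -0.48 ± 0.12 in control and -0.38 ± 0.07 in Ptf1a cKO (SD, n = 3 each), and the groups overlapped.

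**Figure D2:**
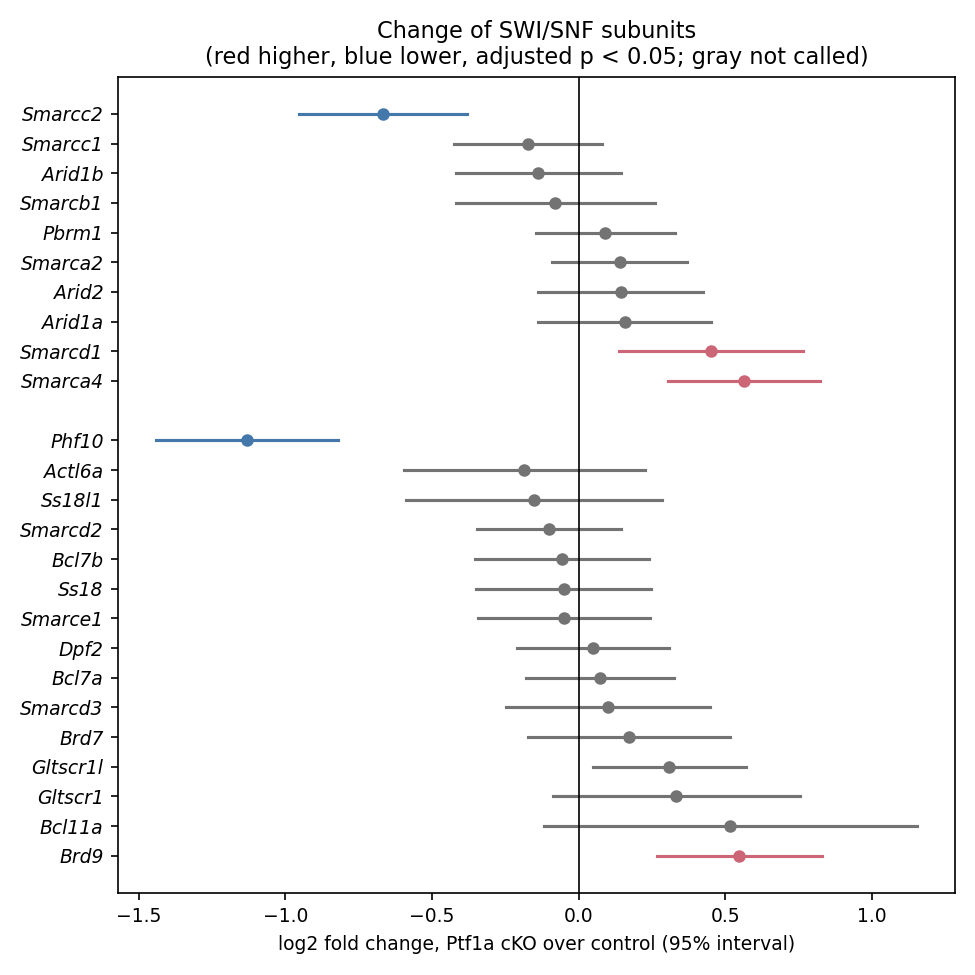
Log2 fold change, Ptf1a cKO over control, with its 95% interval from limma, for the 10 SWI/SNF subunits chosen by name (top) and 15 further subunits (bottom). Smarca4, Smarcd1 and Brd9 lie to the right and Smarcc2 and Phf10 to the left with an adjusted p under 0.05, and the intervals of 19 of the other 20 subunits cross 0.

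Pairs of paralogs were compared within each library, since such a ratio depends on the scaling of the libraries only through the pseudocount. The log2 ratio of Smarca4 to Smarca2 was 0.22, 0.15 and 0.28 in control and 0.50, 0.67 and 0.76 in Ptf1a cKO libraries. The balance of the ATPase transcripts was thus further towards Smarca4 in every Ptf1a cKO library, by 0.42 on the log2 scale or 1.34-fold. Among single genes, 50.8% also had groups that did not overlap. The log2 ratio of Smarcc1 to Smarcc2 was -3.01, -3.08 and -2.71 in control and -2.50, -2.48 and -2.33 in Ptf1a cKO libraries, a difference of 0.50. That of Arid1a to Arid1b was 1.06, 1.36 and 1.23 in control and 1.37, 1.40 and 1.77 in Ptf1a cKO libraries, a difference of 0.29, with the nearest libraries almost touching. For each of the 3 ratios the exact permutation test gave a two-sided p of 0.10 (also 0.10 after adjustment over the 3 pairs), which is the smallest that 3 against 3 libraries allow. Leaving out a library kept the sign of all 3 differences, with ranges of 0.36 to 0.50, 0.43 to 0.61 and 0.17 to 0.37.

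**Figure D3:**
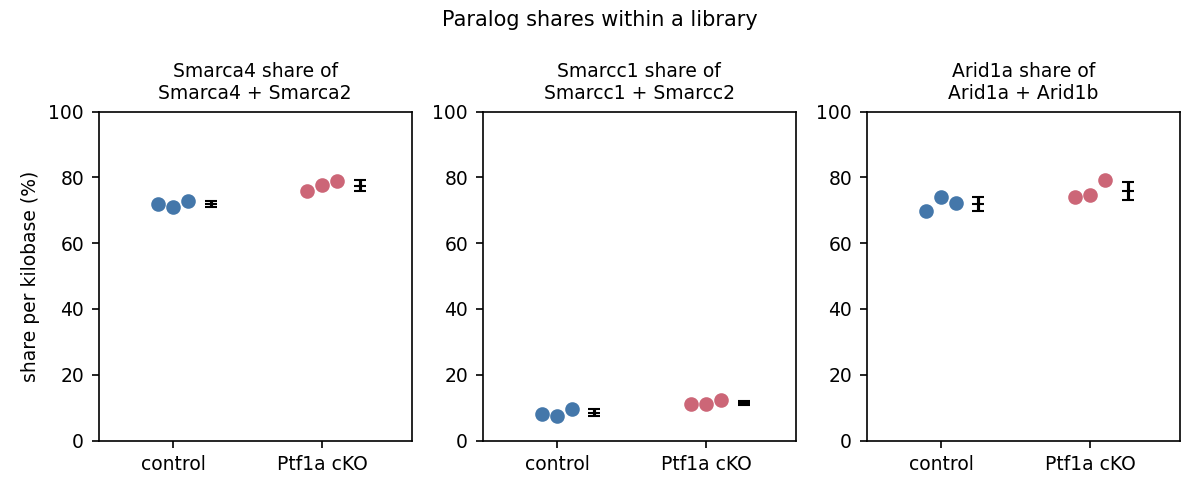
Share of 1 paralog in the sum of a pair, from normalized counts per kilobase of annotated exon, with 1 point per library and the mean and SD of each group of 3 in black. The share of Smarca4 is 70.9% to 72.9% in control and 75.7% to 78.9% in Ptf1a cKO libraries, that of Smarcc1 7.64% to 9.63% and 11.0% to 12.2%, and that of Arid1a 69.8% to 74.0% and 74.2% to 79.1%.

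The size of the Smarca4 share rests on the length given to Smarca2. By the longest transcript of each gene it was 51.9 ± 1.19% in control and 59.2 ± 2.24% in Ptf1a cKO (SD, n = 3 each), so that Smarca4 and Smarca2 stood near each other in control, and the groups again did not overlap.

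Levels of different subunits were compared as normalized counts per kilobase of annotated exon (GENCODE M21 on GRCm38). In control pancreata Smarcc2 stood first at 283 ± 29.9, followed by Smarca4 at 58.5 ± 2.56, Arid1a at 53.7 ± 1.97, Pbrm1 at 42.0 ± 1.13 and Smarcc1 at 25.8 ± 1.73 per kilobase (SD, n = 3 each). These 5 did not overlap with their neighbors in the order. Smarca2, Arid1b, Arid2, Smarcb1 and Smarcd1 followed between 22.8 and 17.0 per kilobase, and each overlapped with the next. The level of the highest subunit was 16.6 times that of the lowest. In Ptf1a cKO pancreata the first 4 places by this length were in the same order, with Smarcc2 at 177 ± 14.5 and Smarca4 at 87.0 ± 8.93 per kilobase (SD, n = 3 each), while Smarcd1 moved from place 10 to 6 and Smarcc1 from 5 to 8 among neighbors that in part overlap. Several places rest on the length used. By the longest transcript Arid1a stood before Smarca4 in control (75.3 and 59.4 per kilobase) and after it in Ptf1a cKO (84.6 and 88.4), Smarcc1 was at place 6 in both groups and Smarcd1 went from 10 to 8. The exons of Smarca2 together span 14.3 kb but its longest transcript 5.92 kb, by which its control level was 55.0 per kilobase and its place 4. For Smarcb1 both lengths are long, at 7.93 kb of exon and 7.44 kb for the longest transcript. Which transcripts were in use was not measured, and a shorter one would raise the level and place of a subunit.

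A list of 20 further subunits of the BAF, PBAF and non-canonical BAF forms was read from textbook knowledge, and 15 of them had values. Of these, 1 was higher (Brd9) and 1 lower (Phf10), and 13 did not pass the threshold, which at 2 of 15 is under the 33.9% of all genes. Their median log2 fold change was 0.05. Phf10, a PBAF subunit with histone-reading PHD fingers, was at 302, 365 and 314 normalized counts in control and at 144, 172 and 129 in Ptf1a cKO libraries. At -1.13 ± 0.14 on the log2 scale (SE; limma adjusted p = 4.97e-04), it was the most changed of the 25 subunits measured, and all Ptf1a cKO libraries were at most 172 normalized counts. It passed the threshold in 6 of 6 fits with a library left out, from -1.24 to -1.04. With an equal total it was at 0.34, or -1.14 relative to the median gene, and under the other 3 scalings it was called lower, at -1.15 to -0.97. Phf10 overlaps the gene 1600012H06Rik on the opposite strand, with 470 bases of exon in common, and that gene was at 205 ± 28.9 in control and 198 ± 16.0 in Ptf1a cKO libraries (SD, n = 3 each).

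Brd9, the bromodomain subunit that marks the non-canonical form, was at 93.7, 86.2 and 79.7 normalized counts in control and at 131, 118 and 135 in Ptf1a cKO libraries. The groups did not overlap, and the difference was 0.55 ± 0.12 on the log2 scale (SE; limma adjusted p = 0.00971), past the threshold in 6 of 6 fits with a library left out. Gltscr1l, the gene now called Bicral and a further subunit of that form, was at 141, 142 and 134 in control and at 159.9, 170.4 and 191 in Ptf1a cKO libraries. Its groups did not overlap either, but its log2 fold change of 0.31 missed the threshold (limma adjusted p = 0.0653). It passed under 3 of the 4 other scalings, at 0.35 with the same 75th percentile (limma adjusted p = 0.0413) and 0.46 with a total that leaves out digestive enzymes (limma adjusted p = 0.0214), as well as with an equal total. The remaining subunits, among them Smarcd2, Smarcd3, Smarce1, Actl6a, Dpf2, Brd7 and Ss18, had log2 fold changes between -0.19 and 0.52 and adjusted p-values of 0.183 or more (limma).

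Other families of nucleosome remodelers were counted for comparison. Of 57 genes listed for the ISWI, CHD and NuRD, INO80 and SRCAP complexes and for other SNF2-type ATPases, 50 had values, of which 7 were higher and 1 was lower (16.0% called, beside 33.9% of all genes). Chd3, a NuRD ATPase, rose from 149.6 to 446 normalized counts, or by 1.56 on the log2 scale (limma adjusted p = 4.27e-04). Hltf, an ATPase of DNA damage tolerance, rose from a mean of 83.8 to 151, with a log2 fold change of 0.82 (limma adjusted p = 0.00178). Ino80d, a subunit of INO80, was called higher by 0.43 (limma adjusted p = 0.0224) and Chrac1, a histone-fold partner of ISWI, lower, at -0.41 on the log2 scale (limma adjusted p = 0.0230). With a library left out, Ino80d passed in 3 and Chrac1 in 2 of 6 fits, and with an equal total Chrac1 was at 1.04, or -0.44 relative to the median gene. Under the other 3 scalings Chrac1 was at -0.44 to -0.26, and its call was lost with digestive enzymes left out of the total (limma adjusted p = 0.122).

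**Figure D4:**
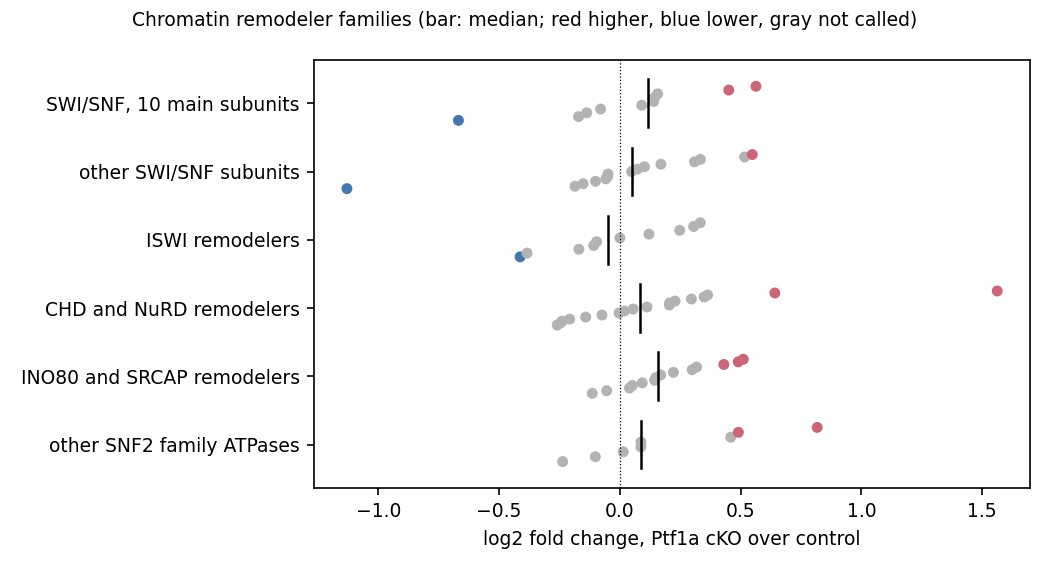
Log2 fold change, Ptf1a cKO over control, of each measured gene in 6 lists of chromatin remodelers, with a black bar at the median of each list. Gray points were not called, and the medians of the 6 lists lie between -0.05 and 0.16.

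The genes most like Smarca4 over the 6 libraries were ranked by Pearson's r of log2 values, as a description. The first were Cpxm1 (r = 0.998), Usp53 (0.996), Rab32 (0.996), 2610301G19Rik (0.994) and Atp9b (0.994). All 5 were higher in each Ptf1a cKO library than in any control library and had the same order of Ptf1a cKO libraries as Smarca4, with Cpxm1 at 45.2, 58.0 and 78.7 normalized counts. In all, 373 of 10235 other genes had an r of at least 0.95. The 6 points come from the control and Ptf1a cKO groups. The part of the group difference and of the shared scaling in these correlations was not tested. Among the subunits, Gltscr1l had an r of 0.97 with Smarca4, Smarcd1 and Brd9 of 0.94, Smarcc2 of -0.93 and Phf10 of -0.97.

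Markers of several cell types in whole pancreas moved with genotype as well, and their counts stand beside 17.1% of all genes called higher and 16.8% called lower. Of 18 acinar markers 15 were lower, with a summed level of 11315000 to 13997000 normalized counts in control and 1484400 to 4423400 in Ptf1a cKO libraries. Higher were 10 of 11 fibroblast and stellate markers (summed level 3090 to 3507 in control, 6084 to 10698 in Ptf1a cKO), 8 of 12 leukocyte markers (1021 to 1649 and 2032 to 5674) and 4 of 8 ductal markers (3887 to 4536 and 25464 to 108920). The ductal sum was carried by Spp1. Without it the other 7 ductal markers summed to 2481 to 2578 in control and 3564 to 4494 in Ptf1a cKO, and the median log2 fold change of the 8 was 0.44. Of 7 markers of proliferating cells 3 were higher (218 to 324 and 290.1 to 854) and of 5 adipose markers 1 (169.8 to 427 and 321 to 1293), with summed levels that overlapped between the groups in both lists. Of 8 endothelial markers 1 was higher (summed level 839 to 1054 and 868 to 1107). None of 8 endocrine markers was called by limma, and none had an unadjusted p under 0.05 (summed level 11435 to 42859 and 5846 to 33414). SWI/SNF subunits are expressed in all of these cell types, and the part of a shift in cell types in the changes of Smarca4, Smarcd1, Smarcc2, Phf10 and Brd9 was not tested.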

How the data were processed

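RNA-seq libraries of 3 control and 3 Ptf1a cKO pancreata were analysed. The submitters' processing notes name TopHat2 2.0.4, Bowtie 0.12.7.0, SAMtools 0.1.18.0, HTSeq 0.6.0 and the build mm9, and the authors normalized with TMM in edgeR. The deposited values are a signal, namely normalized counts that the authors scaled across libraries. They carry decimals, and at best 9.54% of low values in a library were whole multiples of a step (within 0.02 of a step). Reads per gene were therefore not recovered, and the count models listed as alternatives were not run. The paper gives the uniquely aligned reads of each library, and these were not used. The 3 entries that name no gene (no feature, ambiguous, and alignment not unique) were left out. They held 75.7% to 82.6% of the summed normalized values of a library, which is not a share of its reads.

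Values were divided by 13.6, a constant for all libraries and log2(value + 0.25) was tested with limma 3.58.1 in R 4.3.3 (lmFit, eBayes with trend, no covariate, two-sided, mean of at least 0.25). Fold changes on this scale understate those of low genes. Ratios were tested in Python 3.11.15 with scipy 1.17.1. The fit was tested on simulated data. The subunits, lists and tests were chosen with earlier results of these data known. Named were the 10 subunits, called members of the further list, the called gene with the smallest adjusted p per remodeler list and direction, Ptf1a, and the 5 genes most like Smarca4. Gltscr1l and Spp1 were chosen after their values were seen. Positions and lengths are those of GENCODE M21 (GRCm38), not of mm9, and promoter sequences are from RefSeq. The mice are separate animals. Alternatives covered the pseudocount, filter, scaling, variance model, sex, replicate block, threshold and each library left out.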

Additional observations from a re-analysis of the deposited data

How the results depend on the processing

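The number of genes called across the table, the subunit counts and the named genes were recomputed under each alternative. The scaling mattered most. After rescaling all libraries to an equal total, the median gene moved by 1.49, 9719 genes were called, and the calls became 10 higher and 0 lower for the 10 subunits, 14 and 0 for the further subunits, and 50 and 0 for the other remodelers. The log2 changes of Smarcb1 (1.39), Smarcc1 (1.30), Smarcc2 (0.83), Arid1b (1.34), Phf10 (0.34) and Chrac1 (1.04) were then above 0, each under the shift of the median gene, which that scaling gives to all genes alike. With digestive enzymes left out of that total, the median gene moved by 0.19, Smarcb1 was at 0.075 and Arid1b at 0.019, 2 further subunits were higher, and the other remodelers had 12 higher and 0 lower. With the same 75th percentile 2 further subunits were higher. At an adjusted p under 0.01, 1794 genes, 1 of the 10 subunits as higher, and 3 higher and 0 lower other remodelers were called.

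Leaving out each library gave 2363 to 3601 called genes, 1 to 2 higher subunits, 4 to 6 higher and 0 to 1 lower other remodelers, and -0.18 to 0.069 for Smarcb1. With the replicate number as a block, 1 of the 10 subunits was higher, as Smarcd1 was lost (limma adjusted p = 0.0553). Deviations of libraries with the same number correlated at 0.04, 0.13 and 0.14, and those of libraries with different numbers at -0.20 to 0.08. Whether the numbers pair the mice was not tested, and the main fit did not pair them. Within-sex values, paralog shares by longest transcript and the ductal sum without Spp1 were added after seeing the data. Models of read counts were planned and not run. Reads per gene were not recovered, and 3 mice a group limit every interval.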
